A study of Rattus norvegicus with 6 samples.

Results

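Transcripts of 10 genes of the circadian system were followed in rat vascular smooth muscle cells (VSMCs): Per1, Per2, Per3, Cry1, Cry2, Nr1d1, Nr1d2, Dbp, Tef and Noct. They were taken by gene symbol from a table of 13526 genes, all 10 were listed, each on 1 row, and all 10 passed the filter on low values described below. The cells were wild-type primary VSMCs, grown from thoracic aortas of male rats after intima and adventitia had been stripped off. In the OM plus EMPA group (3 samples) they were kept for 5 days, as the labels state, in osteogenic media (OM) to which 1 μM empagliflozin was added, a glucose-lowering drug that blocks the renal transporter SGLT2. In the OM group (3 samples) they were kept in the same media alone. OM is DMEM with serum, 10 mM β-glycerophosphate and 3.5 mM CaCl2, and it is used to induce calcification. Both groups were thus in osteogenic media, although the sample titles read Pi where the treatment notes give OM, and cells in complete media were not analysed here. The study's figure legend gives a shorter culture than the labels, no source used here gives the hour of collection, and nothing says whether the samples of a group were separate cultures or animals. The p-values therefore rest on a spread between libraries that may be no more than technical.

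The mammalian clock is a feedback loop of transcription that runs in nearly every cell, including VSMCs. The proteins CLOCK (or NPAS2) and ARNTL (also called BMAL1) bind E-boxes and activate the Per and Cry genes, whose proteins return to the nucleus and repress CLOCK and ARNTL. In a second loop the nuclear receptors REV-ERBα (Nr1d1) and REV-ERBβ (Nr1d2), which are also E-box targets, repress Arntl and Npas2. Dbp and Tef encode activators of the PAR bZIP family that bind D-boxes. Noct encodes nocturnin, a rhythmic protein related to the deadenylases, which acts on NADP(H) in mitochondria and cytosol and is linked in mice to fat storage and bone formation.

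Of the 10 genes, Nr1d1 and Noct fell in the OM plus EMPA group, none rose and 8 did not pass the test. Nr1d1 was at 19.2 ± 2.07 TPM with empagliflozin, against 25.8 ± 1.19 TPM in OM alone, and Noct was at 1.87 ± 0.342 TPM against 3.42 ± 0.416 TPM (SD, n = 3 each). The Per and Cry genes, Dbp and Tef had log2 fold changes between -0.12 and 0.10. Those of the 4 genes of the activating arm lay between -0.44 and 0.36, and 0 passed the test. TPM are transcript abundances scaled to a common library total and corrected for transcript length, so levels can be set side by side between genes. A log2 fold change here is the OM plus EMPA mean minus the OM mean of log2(TPM + 1), tested with limma over 12564 genes whose mean over the libraries reached 1 TPM. A gene was called where its Benjamini-Hochberg adjusted p was at most 0.05.

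The 2 members that were lower compare with 611 of 12564 tested genes that were lower (4.86%), and the 0 members that were higher with 259 (2.06%). The 10 genes were chosen with earlier results of these data known, so this is not an independent comparison. At an unadjusted p under 0.05 there were 3 members, Nr1d1, Noct and Nr1d2, and 3024 tested genes. The median log2 fold change of the 10 genes was -0.05, and that of all tested genes was also -0.05. Leaving out OM plus EMPA replicate 3 gave a median of -0.116 for the 10 genes and -0.055 for all, and leaving out OM replicate 1 gave -0.101 and -0.050. Under median-ratio scaling of the libraries the medians were 0.001 for the 10 genes and -0.001 for all.

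Values of whole libraries that bear on these comparisons were as follows. The TPM of a library add up to 997954 to 998293, so the depth behind a value is unknown. Transcripts of the mitochondrial genome took 9.98 to 10.6% of TPM with empagliflozin and 7.47 to 9.25% without it. The 6 smooth muscle markers (Acta2, Tagln, Cnn1, Myh11, Smtn and Lmod1) were all present and summed to 2480 to 2920 TPM in the OM plus EMPA group and 1760 to 2160 TPM in the OM group, with 4 of them called higher. Of 6 leukocyte markers only Cd68 and Cd14 were listed, summing to 30.1 to 40.0 TPM against 40.5 to 44.3 TPM with 1 called lower. Ptprc, Adgre1, Csf1r and Cd3e were not listed among the genes. The 4 markers of adventitial fibroblasts summed to 877 to 929 TPM against 978 to 999 TPM with 1 called lower. The 5 endothelial markers (Pecam1, Cdh5, Vwf, Kdr and Tie1) were also looked up and were not listed. The part of these shifts in the results below was not tested, and in bulk samples fewer cells of a type and less RNA per cell cannot be told apart.

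The promoters of the members that fell are shown because the clock acts on its genes through short DNA motifs near their starts. The sequences are those of RefSeq in the rat build GRCr8, from 250 bases before to 50 bases after an annotated start, written 5′ to 3′ on the gene's strand. Of the 10 genes 9 matched, with 10 promoters, since Nr1d1 has 2 annotated starts. Capitals mark exact matches, on either strand, to the E-box CACGTG, the E′-box CACGTT or the D-box, TTATGTAA or TTACGTAA. The core of the element read by ROR and REV-ERB proteins, TAGGTCA, and the cAMP response element TGACGTCA were also searched. Per2, which did not pass the test, is given for comparison.
Nr1d1, start 1 (chr10:84231763-84232062, minus strand): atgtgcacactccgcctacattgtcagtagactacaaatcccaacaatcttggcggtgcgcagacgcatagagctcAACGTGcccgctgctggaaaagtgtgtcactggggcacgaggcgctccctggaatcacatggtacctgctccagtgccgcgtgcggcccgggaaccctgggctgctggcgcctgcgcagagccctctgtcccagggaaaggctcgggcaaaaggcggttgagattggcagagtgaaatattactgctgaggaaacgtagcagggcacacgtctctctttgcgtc
Nr1d1, start 2 (chr10:84229405-84229704, minus strand): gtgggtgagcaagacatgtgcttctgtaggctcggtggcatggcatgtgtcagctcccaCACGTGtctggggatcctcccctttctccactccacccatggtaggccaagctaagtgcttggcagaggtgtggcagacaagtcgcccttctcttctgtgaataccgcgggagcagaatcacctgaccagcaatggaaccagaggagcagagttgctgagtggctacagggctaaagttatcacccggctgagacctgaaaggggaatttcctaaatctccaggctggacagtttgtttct
Noct (chr2:137421824-137422123, plus strand): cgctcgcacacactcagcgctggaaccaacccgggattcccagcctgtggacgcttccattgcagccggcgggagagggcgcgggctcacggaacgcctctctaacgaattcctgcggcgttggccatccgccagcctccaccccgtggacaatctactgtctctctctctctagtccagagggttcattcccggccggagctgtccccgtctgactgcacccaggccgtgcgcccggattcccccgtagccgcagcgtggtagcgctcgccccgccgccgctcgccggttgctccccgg
Per2 (chr9:99496944-99497243, minus strand): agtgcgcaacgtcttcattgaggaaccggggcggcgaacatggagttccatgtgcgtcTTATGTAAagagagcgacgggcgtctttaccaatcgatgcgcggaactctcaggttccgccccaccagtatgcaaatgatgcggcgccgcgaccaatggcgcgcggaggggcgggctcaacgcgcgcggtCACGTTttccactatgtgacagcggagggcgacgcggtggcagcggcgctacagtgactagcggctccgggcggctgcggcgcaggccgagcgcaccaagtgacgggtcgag

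Counting the start itself as 0, the upstream promoter of Nr1d1 held an E′-box at -174 to -169 and the second one an E-box at -191 to -186. The Per2 promoter held a D-box at -192 to -185 and an E′-box at -62 to -57. The window of Noct held none of these letters, nor did those of Nr1d2, Dbp, Per1 and Per3. An E-box also lay in the Tef promoter and an E′-box in that of Cry2. Over all 33469 tabulated promoters, 6.42% held an E-box, 4.83% an E′-box and 1.01% a D-box. In the 10 promoters these counts were 2, 3 and 1. TAGGTCA and TGACGTCA were in 0 of the 10 and in 2.63% and 1.83% of all promoters. These matches describe the letters in this window only.

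**Figure D1:**
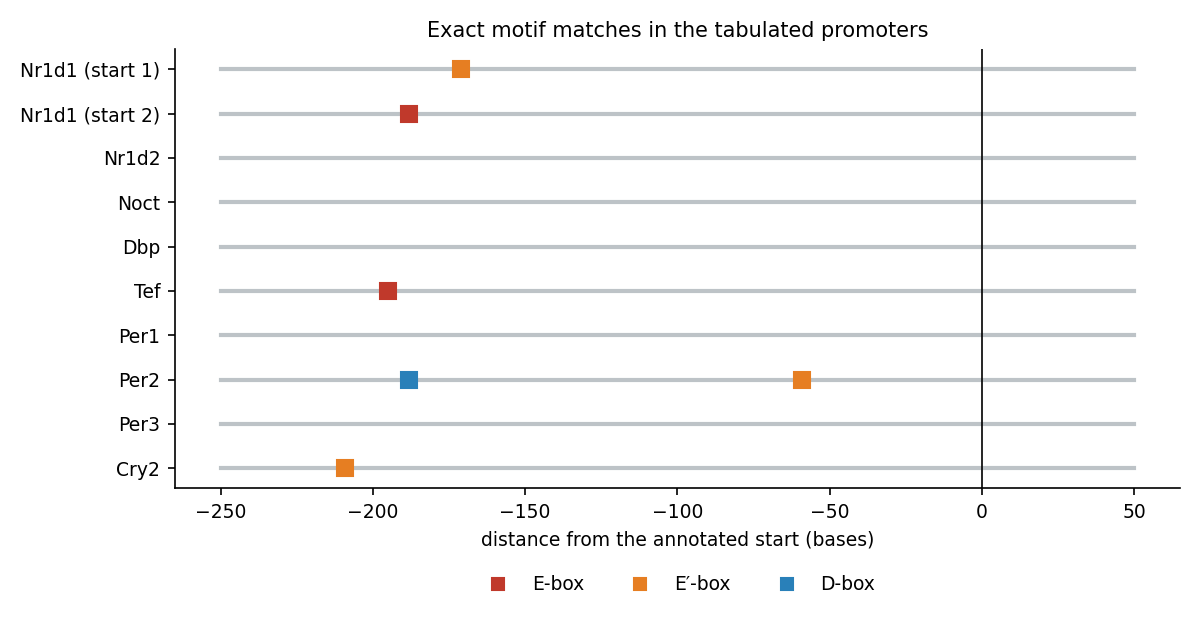
Exact matches to the E-box, E′-box and D-box in the 10 tabulated RefSeq promoters of 9 genes, by distance in bases from the annotated start (vertical line), with each grey bar spanning the window searched. Matches lie in both Nr1d1 promoters and in those of Tef, Per2 and Cry2, and none lies in that of Noct.

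Nr1d1 encodes REV-ERBα, the repressor that sets the rhythm of Arntl and also represses inflammatory genes in macrophages. In the authors' table it lies on chromosome 10 from 83728318 to 83735705, with 3 reference transcripts. It was at 21.49, 18.52 and 17.50 TPM in the OM plus EMPA libraries, against 27.10, 24.80 and 25.42 TPM in the OM libraries. Every library with empagliflozin was below every library without it. The ratio of the group means was 0.744, and the log2 fold change was -0.41 (SE 0.08, 95% interval -0.60 to -0.22, adjusted p = 0.0281 from limma). The gene shares 1619 bases with Thra, the thyroid hormone receptor gene on the opposite strand, and the counting is not stated to use strand, so reads in the shared stretch cannot be told apart. Thra was at 23.7 TPM with empagliflozin and 21.5 TPM in OM alone (log2 fold change 0.13, adjusted p = 0.42 from limma).

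The call of Nr1d1 was lost in 5 of the 6 fits with 1 library left out and without the variance trend (adjusted p = 0.0537 from limma). It was kept without OM plus EMPA replicate 1 (adjusted p = 0.0213 from limma). The adjusted p from limma was 0.0937 without OM plus EMPA replicate 2, 0.0728 without replicate 3 of that group, and 0.0906, 0.0514 and 0.0791 without OM replicates 1, 2 and 3. The log2 fold change in these 6 fits was -0.49 to -0.35.

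Nr1d2 encodes REV-ERBβ, which overlaps with REV-ERBα in function. It was at 23.63, 21.73 and 22.86 TPM in the OM plus EMPA libraries and 24.70, 26.00 and 27.50 TPM in the OM libraries. The groups did not overlap here either, with a mean of 22.7 ± 0.956 TPM against 26.1 ± 1.4 TPM (SD, n = 3 each). The log2 fold change was -0.19 (SE 0.06, 95% interval -0.33 to -0.05), with an adjusted p of 0.116 from limma, so it was not called. Summed over both receptors, the level was 45.1, 40.2 and 40.4 TPM with empagliflozin and 51.8, 50.8 and 52.9 TPM in OM alone. The TPM ratio of Nr1d1 to Nr1d2 was 0.909, 0.852 and 0.766 with empagliflozin and 1.10, 0.954 and 0.924 in OM alone. The ratio was lower in each library with empagliflozin than in each without it, and this difference between the receptors was not tested.

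Nr1d1, Nr1d2 and Noct were the 3 members with every OM plus EMPA library below every OM library, and 0 members lay above. Among all tested genes this held for 22.5% below and 7.85% above. The other 7 members overlapped between groups.

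Noct was the lowest of the 10 transcripts. The authors' table places it on chromosome 2 from 135271189 to 135291400, with 2 reference transcripts. It was at 1.70, 1.64 and 2.26 TPM in the OM plus EMPA libraries and 3.82, 3.45 and 2.99 TPM in the OM libraries. The highest library with empagliflozin stayed under the lowest one without it, and the ratio of the means was 0.546. The log2 fold change was -0.63 (SE 0.13, 95% interval -0.94 to -0.32, adjusted p = 0.0348 from limma). At levels this close to the added 1 TPM the log2(TPM + 1) scale understates the change, and with a pseudocount of 0.1 TPM the log2 fold change was -0.85 (adjusted p = 0.0375 from limma).

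The call of Noct was kept without OM plus EMPA replicate 3 (adjusted p = 0.042 from limma), the sample nearest to the OM group. It was lost without OM plus EMPA replicate 1 (adjusted p = 0.0932) or 2 (adjusted p = 0.111) and without OM replicate 1 (adjusted p = 0.111), 2 (adjusted p = 0.0817) or 3 (adjusted p = 0.0627), all from limma. The log2 fold change stayed between -0.72 and -0.56. Without OM plus EMPA replicate 2 or any 1 OM library, neither Nr1d1 nor Noct was called. In the fits without OM plus EMPA replicate 1 or 3, 1 of the pair was.

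**Figure D2:**
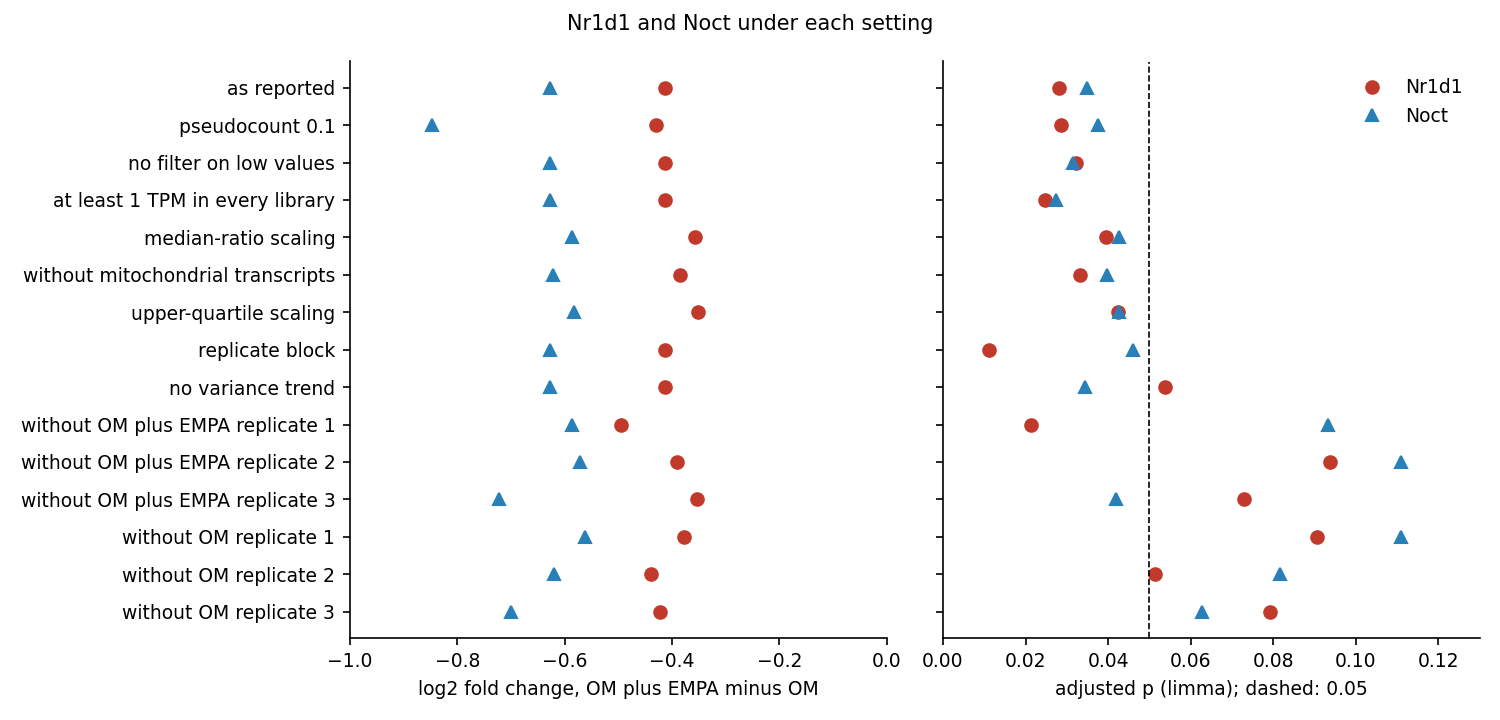
Log2 fold change (left, OM plus EMPA minus OM) and adjusted p from limma (right, with 0.05 dashed) of Nr1d1 and Noct as reported and under 14 other settings. The fold changes stay negative throughout, while most fits without 1 library put the adjusted p above 0.05, up to 0.111.

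The period genes encode the scaffold proteins of the repressor complex. Per1, which also responds at once to glucocorticoids and cAMP, was at 5.04, 4.90 and 5.92 TPM with empagliflozin and 5.88, 5.21 and 4.98 TPM in OM alone. Per2 was at 3.54, 4.92 and 4.58 TPM against 3.71, 4.52 and 4.27 TPM, and Per3 at 5.68, 6.46 and 5.98 TPM against 5.09, 6.60 and 6.55 TPM. The groups overlapped for each of them, and the OM libraries spread more widely than those with empagliflozin for Per3. The log2 fold changes were -0.02 (95% interval -0.26 to 0.22) for Per1, 0.04 (-0.26 to 0.34) for Per2 and -0.002 (-0.26 to 0.26) for Per3, with adjusted p of 0.94, 0.867 and 0.994 from limma. The sign of each turned under some scaling or without some library, and the intervals leave room for changes of about the size seen for Nr1d2 either way. Summed, the 3 genes stood at 15.7 ± 1.22 TPM with empagliflozin and 15.6 ± 0.819 TPM in OM alone (SD, n = 3 each).

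The cryptochromes are the main repressors of CLOCK and ARNTL. Cry1 was at 7.71, 6.60 and 8.67 TPM in the OM plus EMPA libraries and 7.97, 8.10 and 8.30 TPM in the OM libraries. The spread was wide with empagliflozin and narrow without it, and the log2 fold change was -0.08 (95% interval -0.32 to 0.15, adjusted p = 0.662 from limma). Cry2 was at 12.76, 11.17 and 12.51 TPM against 12.54, 14.57 and 12.84 TPM. Its groups overlapped by a single library of each, and the log2 fold change was -0.12 (95% interval -0.32 to 0.07, adjusted p = 0.42 from limma). The Cry2 locus shares 4041 bases with an unnamed assembled transcript on the other strand, which was at 19.27, 43.13 and 25.19 TPM with empagliflozin and 40.81, 41.50 and 41.03 TPM in OM alone. It also shares 1097 bases with Mapk8ip1 on the same strand, so reads in both stretches cannot be assigned with certainty.

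Dbp and Tef encode the D-box activators. Dbp, usually among the most strongly cycling transcripts, was at 28.53, 26.49 and 30.23 TPM in the OM plus EMPA libraries and 22.00, 29.36 and 28.59 TPM in the OM libraries. OM replicate 1 was the low one, and the log2 fold change was 0.10 with it (95% interval -0.16 to 0.35, adjusted p = 0.626 from limma) and -0.03 without it. Tef was at 29.59, 28.79 and 27.98 TPM against 28.49, 28.28 and 28.95 TPM. It had the narrowest interval of the 10 genes, -0.10 to 0.12 around a log2 fold change of 0.01 (adjusted p = 0.923 from limma).

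**Figure D3:**
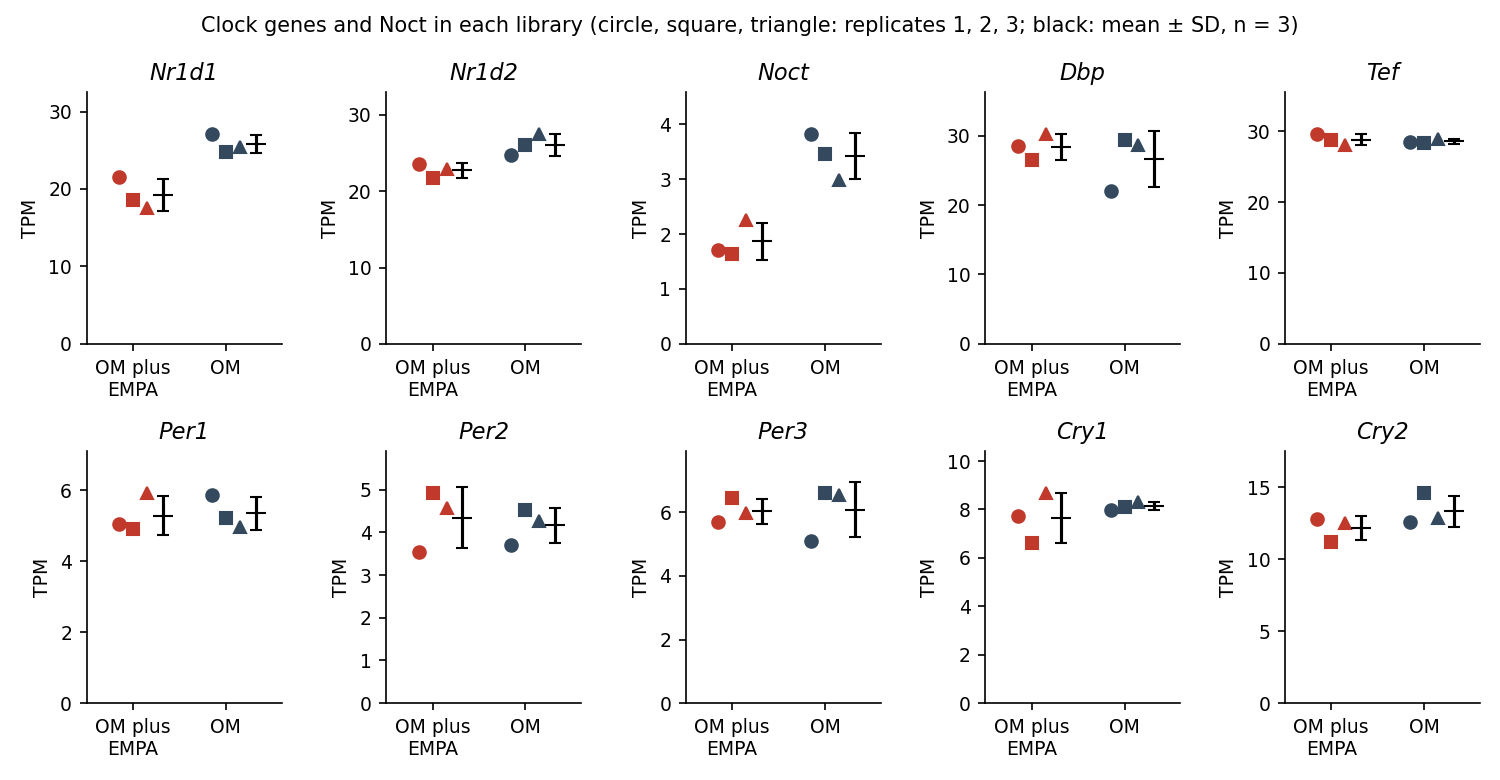
TPM of each of the 10 genes in the 3 OM plus EMPA libraries (left, red) and the 3 OM libraries (right, dark), with each y axis starting at 0 and the mean ± SD in black. Nr1d1, Nr1d2 and Noct show separate groups, and the other 7 genes overlap.

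In order of their OM means the transcripts ran Tef, Dbp, Nr1d2, Nr1d1, Cry2, Cry1, Per3, Per1, Per2 and Noct. Tef, Dbp, Nr1d2 and Nr1d1 formed an upper set at 25.8 to 28.6 TPM in which neighbours overlapped over the OM libraries, and all 4 were above the median gene of the table (16.6 TPM in the OM means). Cry2 at 13.3 TPM and Cry1 at 8.12 TPM stood apart from their neighbours in OM. Per3 (6.08 TPM) and Per1 (5.36 TPM) overlapped, Per1 and Per2 (4.17 TPM) did not in OM, and Per2 and Noct (3.42 TPM) did. With empagliflozin the ranges of Dbp and Nr1d2, of Nr1d2 and Nr1d1 and of Per2 and Noct did not overlap, while those of Per1 and Per2 did. In the OM plus EMPA group the means ran 28.8 TPM for Tef, 28.4 for Dbp, 22.7 for Nr1d2 and 19.2 for Nr1d1, so the order was the same in both groups at this end.

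Of the 4 genes of the activating arm, 0 passed the test, and differences among them were not tested. Clock was at 18.5 ± 0.935 TPM with empagliflozin and 19.2 ± 0.343 TPM in OM alone, and Arntl at 16.4 ± 0.553 TPM against 16.6 ± 0.933 TPM (SD, n = 3 each). Their log2 fold changes, -0.05 and -0.02, turned positive under another scaling of the libraries. Their paralogues lay on opposite sides. Npas2, a partner that can replace CLOCK, was at 9.97, 7.88 and 11.92 TPM in the OM plus EMPA libraries and 12.91, 12.52 and 15.66 TPM in the OM libraries. Arntl2, a paralogue of Arntl, was at 26.69, 23.92 and 30.28 TPM against 19.01, 23.07 and 20.17 TPM. For both genes the groups did not overlap, Npas2 being below and Arntl2 above. Among all tested genes, 22.5% lay below in this way and 7.85% above.

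Neither passed the test as designed. The log2 fold change of Npas2 was -0.44 (SE 0.14, 95% interval -0.77 to -0.10, adjusted p = 0.118 from limma) and that of Arntl2 was 0.36 (SE 0.10, 95% interval 0.13 to 0.59, adjusted p = 0.0765 from limma). Arntl2 passed under median-ratio scaling (log2 fold change 0.42, adjusted p = 0.0497 from limma) and upper-quartile scaling (0.42, adjusted p = 0.0473 from limma). Npas2 passed with the replicate number as a block (adjusted p = 0.0235 from limma) but not under those scalings (adjusted p = 0.177 from limma in each). With 1 library left out, each gene was called in 0 of the 6 fits. The limma adjusted p was then 0.0627 to 0.2 for Arntl2 and 0.0688 to 0.277 for Npas2. The TPM ratio of Arntl2 to Arntl was 1.69, 1.42 and 1.84 with empagliflozin and 1.21, 1.37 and 1.15 in OM alone. The TPM ratio of Npas2 to Clock was 0.54, 0.448 and 0.613 against 0.672, 0.666 and 0.804. Arntl2 thus stood above Arntl in all 6 libraries and Npas2 below Clock in all 6.

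**Figure D4:**
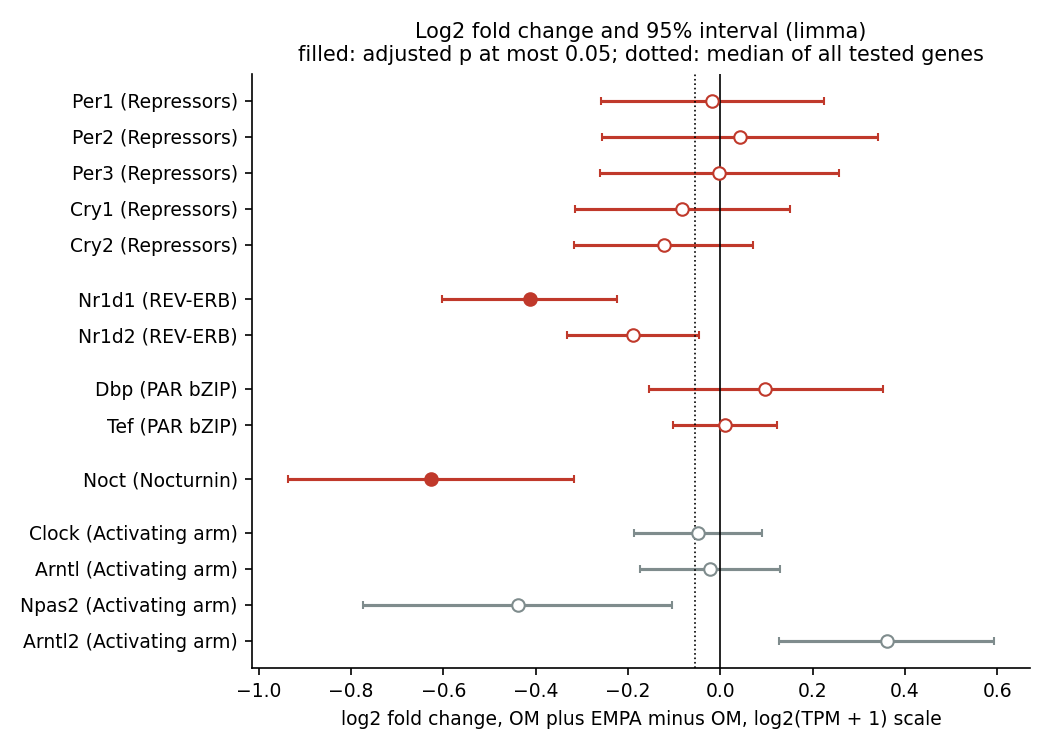
Log2 fold change, OM plus EMPA minus OM, on the log2(TPM + 1) scale with 95% intervals from limma for the 10 genes (red) and the activating arm (grey), filled where the adjusted p is at most 0.05. Nr1d1 (-0.41) and Noct (-0.63) are filled, while Npas2 (-0.44) and Arntl2 (0.36) are open.

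Of the other receptors and repressors of the loop, 5 were tested and 0 passed. Nfil3, the repressor that competes with DBP and TEF for D-boxes, was at 16.32, 16.94 and 20.37 TPM with empagliflozin and 14.71, 13.96 and 14.64 TPM in OM alone. Its groups did not overlap, and the log2 fold change was 0.28 with an SE of 0.09 (limma adjusted p = 0.101). Bhlhe40, which encodes the E-box repressor DEC1, was the most abundant of the list at 141 ± 3.09 TPM against 133 ± 11.3 TPM (SD, n = 3 each, log2 fold change 0.09, adjusted p = 0.422 from limma). Outside the lists Cipc, a CLOCK-binding repressor chosen after its value was seen, fell to 17.75, 18.95 and 20.02 TPM with empagliflozin, against 23.03, 23.57 and 23.79 TPM in OM alone (log2 fold change -0.30 with an SE of 0.06, limma adjusted p = 0.0306). Of the fits with 1 library left out, only that without OM plus EMPA replicate 3 kept this call. It was also lost under median-ratio scaling (adjusted p = 0.0651 from limma) and upper-quartile scaling (adjusted p = 0.0673 from limma).

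Kinases, phosphatases and ubiquitin ligases set the speed of the clock by marking PER and CRY proteins. Of 18 such genes tested, 0 passed, with a median log2 fold change of -0.07. The smallest p-values were those of Btrc, the β-TrCP ligase that removes PER proteins, at 19.0 ± 0.992 TPM with empagliflozin and 22.6 ± 1.29 TPM in OM alone (log2 fold change -0.24, adjusted p = 0.0768 from limma), and Prkaa2, an AMPK subunit that marks CRY1, at 2.35 ± 0.34 TPM against 1.5 ± 0.221 TPM (0.42, adjusted p = 0.11 from limma; SD, n = 3 each). Over all tested genes 4.86% were called lower and 2.06% higher. Of 15 clock-controlled output genes tested, 2 fell and 0 rose. They were Cdkn1a, the cell cycle inhibitor p21, at 143 ± 15.7 TPM against 195 ± 16.2 TPM (log2 fold change -0.44, adjusted p = 0.0272 from limma), and Por, the electron donor of cytochromes P450, at 103 ± 4.98 TPM against 120 ± 3.57 TPM (-0.22, adjusted p = 0.0387 from limma; SD, n = 3 each). With 1 library left out, Cdkn1a was called in the fits lacking replicate 1 of OM plus EMPA or replicate 3 of OM and in no other, and Por only without OM plus EMPA replicate 3. Without the variance trend both calls were lost, Cdkn1a with a limma adjusted p of 0.0648 and Por with 0.0939. Por was also lost under median-ratio scaling (adjusted p = 0.093 from limma), under upper-quartile scaling (adjusted p = 0.0876) and without mitochondrial transcripts (adjusted p = 0.0584). The fit without OM replicate 2 and the fit with the replicate block each called 1 output gene higher.

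Nocturnin is related to the deadenylases, so these genes and its substrate's enzymes were set beside it. Of 21 genes of the exonuclease-endonuclease-phosphatase deadenylases, CCR4-NOT and their partners, 0 passed, while 1 was called lower without OM plus EMPA replicate 3 and 1 with the replicate block. All 21 log2 fold changes were below 0, with a median of -0.13 and a range of -0.27 to just under 0. Over all tested genes 65.1% were below 0, with a median of -0.05. Under median-ratio scaling 17 of the 21 were below 0 and 4 above, with a median of -0.08. The median over all tested genes was then -0.001, with 6304 of 12564 below 0. Cnot10, a subunit of CCR4-NOT, was at 18.8 ± 0.871 TPM with empagliflozin and 21.6 ± 0.495 TPM in OM alone (log2 fold change -0.20, adjusted p = 0.0937 from limma), and the scaffold Cnot1 at 40.7 ± 0.339 TPM against 44.8 ± 1.19 TPM (-0.14, adjusted p = 0.115 from limma; SD, n = 3 each). Noct fell further than any of them on this scale, as its log2 fold change of -0.63 lies below that range. Of 12 tested enzymes that make or use NADP(H), 0 passed and the median was 0.01. Nadk, the cytosolic NAD kinase, was at 85.7 ± 4.25 TPM against 95.2 ± 2.83 TPM (-0.15, adjusted p = 0.121 from limma), and the isocitrate dehydrogenase Idh1 at 182 ± 6.38 TPM against 163 ± 7.66 TPM (0.16, adjusted p = 0.101 from limma; SD, n = 3 each). Idh1 passed under median-ratio scaling (adjusted p = 0.0358 from limma) but in 0 of the 6 fits with 1 library left out. With the replicate block 3 of these enzymes were called higher.

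Glucocorticoids and cAMP reset clocks in cultured cells, in part through Per1. Of 12 other genes on the list of their targets and mediators, Tsc22d3 rose, Sgk1 fell and 10 did not pass the test. Among all tested genes 2.06% were called higher and 4.86% lower. Tsc22d3, which encodes the glucocorticoid-induced leucine zipper GILZ, was at 21.98, 21.62 and 20.67 TPM with empagliflozin and 13.52, 15.18 and 13.70 TPM in OM alone. The groups were far apart relative to their spread (log2 fold change 0.57 with an SE of 0.07, limma adjusted p = 0.00459), and the call was kept in each of the 6 fits without 1 library. Sgk1, a kinase induced by glucocorticoids and other stimuli, was at 23.2 ± 1.52 TPM against 32.9 ± 3.88 TPM (SD, n = 3 each), a log2 fold change of -0.48 with an SE of 0.09 and a limma adjusted p of 0.0232. Its call was kept in the fits lacking replicate 3 of OM plus EMPA or replicate 2 of OM and in no other. With the replicate block 2 genes of the list were called lower. These 2 targets thus moved in opposite directions, and Per1 was close to level.

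**Figure D5:**
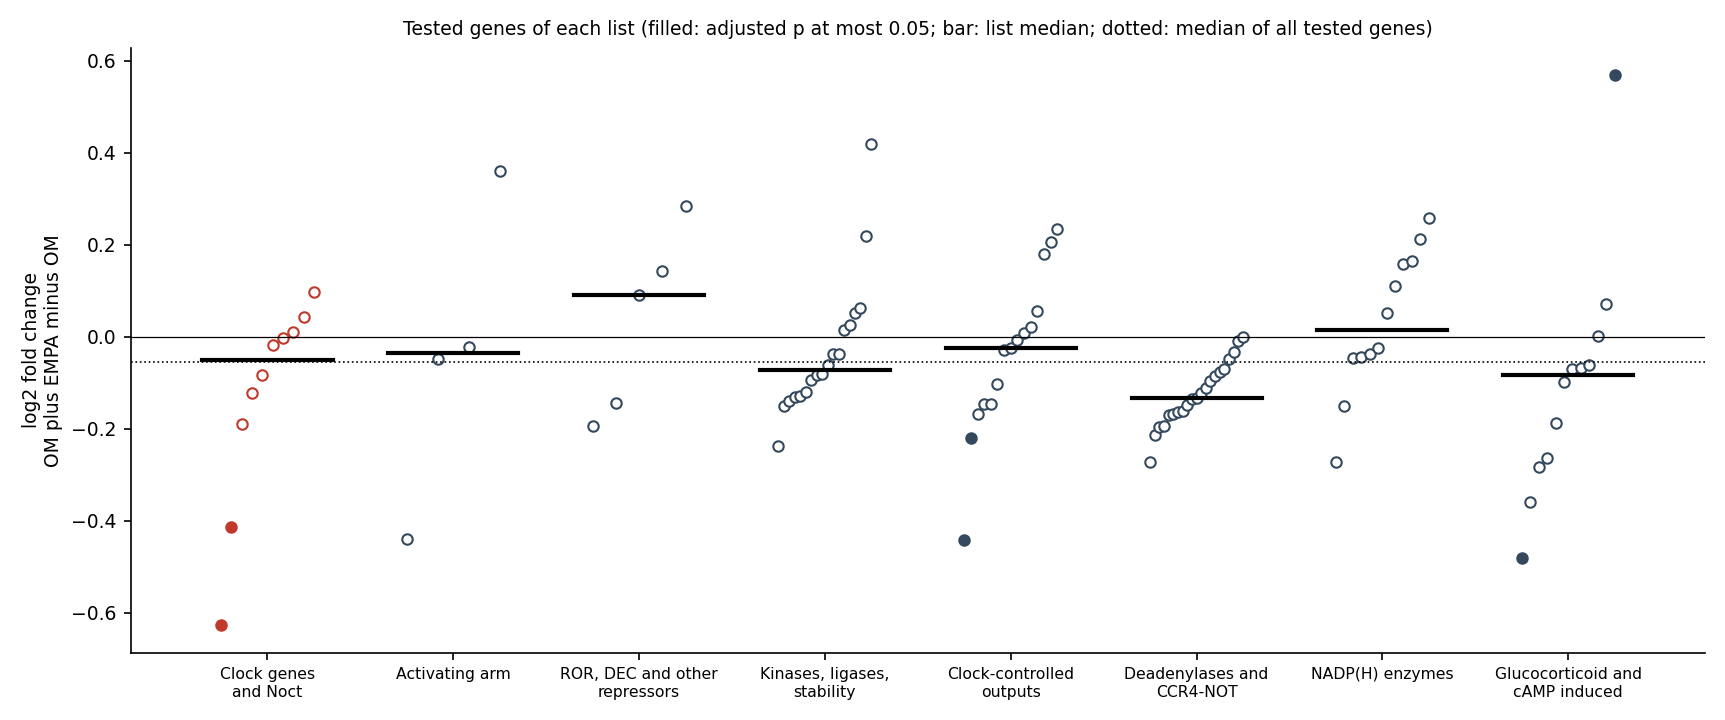
Log2 fold change, OM plus EMPA minus OM, on the log2(TPM + 1) scale, of the 10 genes (red) and of the tested genes of 7 lists around the clock (dark), filled where the adjusted p from limma is at most 0.05, with list medians as bars and the median of all tested genes dotted at -0.05. The filled points beside Nr1d1 and Noct are Cdkn1a and Por among the outputs and Tsc22d3 and Sgk1 in the last list.

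The annotation in the authors' table gave a wider view that did not depend on a list drawn up for this purpose. KEGG's circadian rhythm pathway held 27 tested genes, 6 of them among the 10, and of the other 21 genes 0 passed. The GO term for circadian regulation of gene expression held 58 tested genes, 7 of them among the 10. Of its other 51, Id3 rose and Pml fell. The shares called over all tested genes were 2.06% higher and 4.86% lower. Id3, an inhibitor of basic helix-loop-helix factors, was at 707 ± 97.7 TPM with empagliflozin and 487 ± 44.7 TPM in OM alone (log2 fold change 0.53, adjusted p = 0.0264 from limma), and was called without OM plus EMPA replicate 1 or 3 but not without any other library, nor without the variance trend (adjusted p = 0.0614 from limma). Pml, a nuclear body protein that binds PER2, was at 59.5 ± 3.29 TPM against 85.1 ± 5.5 TPM (-0.51, adjusted p = 0.00526 from limma; SD, n = 3 each), and its call was kept in each of the 6 fits.

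The genes most like Noct and Nr1d1 were sought over the 6 libraries, by the root mean square difference of log2(TPM + 1) centred on each gene's mean. For Noct they were Plekha4 (0.055), Inpp1 (0.064), Uba7 (0.078), Oas1k (0.082) and Mx2 (0.082), in log2 units. Plekha4 was at 17.31, 16.63 and 19.02 TPM in the OM plus EMPA libraries and 30.46, 26.30 and 24.44 TPM in the OM libraries, with OM plus EMPA replicate 3 the highest and OM replicate 3 the lowest of their groups, as in Noct. For Nr1d1 they were Rhbdf2 (0.047), Tiparp (0.050), Phlda3 (0.051), Gm14137 (0.052) and Mrm3 (0.056). Tiparp was at 21.04, 18.67 and 17.79 TPM against 25.96, 26.55 and 24.80 TPM, so that here too OM plus EMPA replicate 1 was the nearest of its group to OM. The genes were picked for closeness over these same 6 libraries, so a like order of replicates partly follows from the choice and is no separate result. These are descriptions over 6 libraries in 2 groups.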

How the data were processed

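The deposited values used here were TPM per gene (13526 genes, 6 libraries). A shorter table drawn from the same genes was not used. In the submitters' processing notes the tools are given without their roles, as DESeq2, RSEM, HISAT2 2.0.5 and fastp. No source used here states the genome build. The same table holds the authors' own log2 fold change, p-value and FDR of each gene, which were not used. Each value column could be tied to its library by name (0 could not). TPM keep no record of depth, so no precision by depth can be given.

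Groups were compared with limma 3.58.1 in R 4.3.3 on log2(TPM + 1) across the 12564 genes whose mean reached 1 TPM, with the group as the only term and a variance trend (4 residual and 3.8 prior degrees of freedom). All p-values are two-sided and were adjusted by the Benjamini-Hochberg method over all tested genes. Tables and plots were made with Python 3.11.15, pandas 2.3.3, numpy 2.4.6 and matplotlib 3.10.9. The fit was first tested on simulated data with independent normal errors and known log2 changes of 0.585 or more. It recovered 73.4% of the changes of 0.585 and 87.9% of those of 1. Smaller changes, such as those of Nr1d1 and Nr1d2, were not simulated.

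The 10 genes and the lists around them were chosen with earlier results of these data known. The text names all 10 genes and the activating arm, of each other list the called genes (up to 6, else 2 by smallest p), and the 5 genes nearest in pattern to Noct and to the other member with the smallest p. Cipc, Id3 and Pml were added after their values were seen. Alternatives were a pseudocount of 0.1, other filters, 3 scalings, the replicate block, no variance trend and each library left out. A comparison of protein sequences was not run. Promoters are from RefSeq (GRCr8), and the authors' coordinates were not compared with that build.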

Additional observations from a re-analysis of the deposited data

How the results depend on the processing

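The count of members called lower, 2 as reported, was 1 without the variance trend and 0 to 1 with 1 library left out, and it kept its value under the 7 other settings. Over all genes, 259 higher and 611 lower became 390 and 381 under median-ratio scaling, 403 and 384 under upper-quartile scaling and 154 and 366 without the variance trend. With 1 library left out the counts were 80 to 216 higher and 245 to 438 lower. The cause of these shifts was not tested. Replicate numbers were to count as pairing the samples only if every same-numbered pair correlated over 0.1. Deviations of same-numbered libraries correlated at 0.098, 0.162 and 0.058, so this rule was not met. Each library still correlated best with its own number, and pairs of unlike number lay between -0.12 and 0.015. Whether the samples were paired was therefore not settled. With the replicate block 449 genes were higher and 951 lower, 2 members were lower (Nr1d1 adjusted p = 0.0112, Noct adjusted p = 0.0461 from limma), and Npas2, Btrc and Idh1 passed (adjusted p = 0.0235, 0.043 and 0.0382). By list the block called 3 NADP(H) enzymes and 1 output gene higher, and 1 deadenylase gene and 2 glucocorticoid or cAMP genes lower. Log2 fold changes that were not called changed sign as follows. Under median-ratio scaling, Per1 was at 0.032, Per3 at 0.048, Arntl at 0.032 and Clock at 0.007. Under upper-quartile scaling they were 0.037, 0.053, 0.038 and 0.013. Without mitochondrial transcripts, Per1 was at 0.009, Per3 at 0.024 and Arntl at 0.007. With 1 library left out, Per1 ranged from -0.088 to 0.041, Per2 from -0.035 to 0.157, Per3 from -0.107 to 0.053, Cry1 from -0.165 to 0.009, Dbp from -0.029 to 0.171, Tef from -0.009 to 0.030 and Arntl from -0.064 to 0.012. Searching only the 250 bases before each start gave the same number of member promoters for every motif. The depth is unknown, so how far it limits low genes such as Noct, Prkaa2 and Gm14137 could not be given.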
